A study of Mus musculus with 8 samples.

Results

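Withdrawal of tetracycline from parental 3134 cells, which carried no dominant-negative remodeler, was examined as 1 library without tetracycline set against 1 library with it, 2 of the 8 DNase-seq libraries of the series. The hotspots of the 2 deposited lists were joined into 40101 sites wherever they overlapped by at least 1 bp, against 99999 sites over all 8 lists. Of the 40101 sites, 29355 were in both lists, 5242 only in the list without tetracycline and 5504 only in the list with it. 3134 cells are a mouse mammary epithelial line. The labels do not say whether the parental cells of these 2 libraries carry the tetracycline transactivator of the host line used for the dominant-negative constructs. Both cultures were grown for 48 hours in medium with 10% charcoal-dextran treated serum, without or with tetracycline, and nuclei were cut with DNase I at 60 to 80 U/ml for 3 min. The lines set beside them, DNBrg1, DNCHD4 and DNSnf2h, each have 1 library without tetracycline, in which a dominant-negative remodeler is induced, and 1 library with it. The labels describe the DNSnf2h construct as FLAG-tagged human SNF2H and the DNCHD4 construct as FLAG-tagged mouse Chd4, each with a lysine exchanged and stably integrated in 3134Tet cells, and give no construct for DNBrg1. All tetracycline-regulated lines were maintained in 5 µg/ml tetracycline, per the protocol given for all 8 libraries, which does not say whether the parental cells are among them or whether a line is 1 clone.

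DNase I cuts DNA where nucleosomes are absent or loosely held, so promoters, enhancers and insulators that are bound by transcription factors appear as short stretches with many cuts, called DNase hypersensitive sites. In a system of the kind used here the transactivator binds its operator sequences and switches the transgene on when the drug is taken away. Tetracyclines also inhibit translation by bacterial ribosomes, and by the related ribosomes of mitochondria. No remodeler mutant is induced in the parental cells, so they serve as a control for the drug. Whether they match the other lines in transactivator and in earlier culture with the drug is not given.

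Each hotspot has a peak density, the highest smoothed number of sequenced DNase tags over it on a scale set by the authors for that library. The list without tetracycline held 35071 hotspots with peak densities of 10.04 to 4129 and a median of 23.9. The list with tetracycline held 35083 hotspots with peak densities of 13.02 to 2126 and a median of 32.6. In tags the lowest hotspot had 39 without and 42 with tetracycline, and the median hotspot had 93 and 105. The total depth of the libraries is unknown, and a site absent from a list is not thereby without cuts. No library of a group was repeated, so no p-value or replicate error can be given, and the tetracycline state cannot be told apart from other differences between the 2 libraries. The intervals below are at 95% and cover the counting of tags or of sites only. The files name no genes, and positions are those of build mm9 as deposited.

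As deposited, the ratio of peak density without over with tetracycline had a median of 0.757 at the sites in both lists, a log2 ratio of -0.40. All ratios below are relative to that median, which was set to 1 (log2 ratio 0). After this centring the middle 50% of the sites in both lists lay between log2 ratios of -0.28 and 0.28, and the middle 98% between -1.13 and 1.20. At least 2-fold differences were found at 1043 sites that were higher without tetracycline, 2.6% of the 40101 sites, and at 926 sites that were lower, 2.31%. As deposited the split was 273 higher, 0.681%, and 3886 lower, 9.69%, and with the strongest of 5 classes of sites set to 1 it was 794 higher and 1231 lower, so the balance of directions rested on the scaling. Among sites in both lists, 611 were higher (2.08%) and 536 lower (1.83%). The nearest site inside the limit for higher sites had a ratio of 2.0008 relative to the median, on chromosome 6 from 122652363, and the nearest outside had 1.998, on chromosome 10 from 79242772. For lower sites the nearest inside was 2.00-fold lower, on chromosome 13 from 49417401, and the nearest outside 1.998-fold lower, on chromosome 1 from 135673996.

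**Figure D1:**
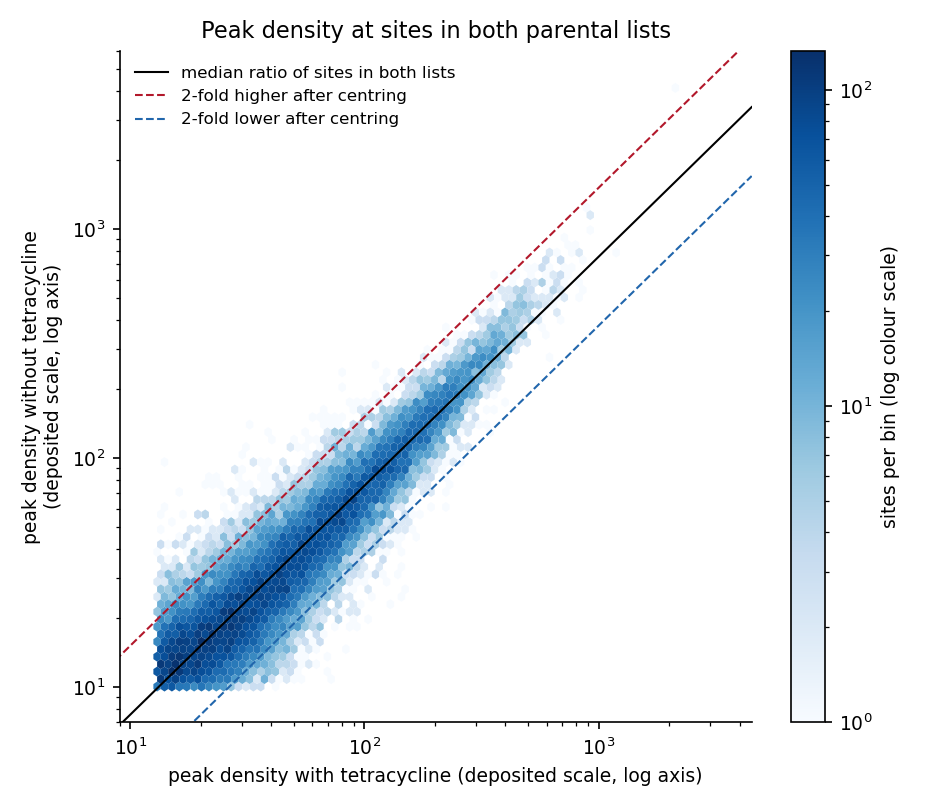
Peak density of the 29355 sites in both parental lists, without tetracycline (vertical) against with tetracycline (horizontal), both on log axes; colour gives the number of sites per bin, the solid line the median ratio of 0.757 and the dashed lines 2-fold above and below it. Most sites lie close to the solid line, 611 lie above the upper dashed line and 536 below the lower one, and the strongest sites lie mainly above the solid line.

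The spread of ratios was larger than tag counting alone gives. Across all sites in both lists the SD of the log2 ratio was 0.46, against 0.20 from counting. The counting interval of a site excluded a ratio of 1 at 11781 of 29355 sites, 40.1%, with 6019 above and 5762 below. It lay wholly beyond 2-fold at 166 higher and 98 lower sites, so at the other sites past 2-fold in both lists the counting interval reached below 2-fold. Spread between repeated libraries of the same state was not measured and would add to this error.

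The 8 sites with the highest ratios, among those with at least 30 tags and at most 10 other sites within 50 kb, were 739 to 1147 bp wide and had 0 to 7 other sites within 50 kb. Every parental hotspot had more than 30 tags, so the tag limit removed no site. With tetracycline all 8 were below the median hotspot density of 32.6. Those on chromosome 11, chromosome 9 and chromosome 16 from 85950448 had 14.3, 14.3 and 13.95, near the lowest density of that list, 13.02. The highest ratio was on chromosome 11 from 35761442 to 35762588, with a peak density of 98.9 without and 14.3 with tetracycline. That is 9.16-fold higher after centring (interval 6.73 to 12.7), from 384 and 46 tags. The mean density was 0.183 of the peak density without and 0.276 with tetracycline at this site, so the hotspot was more sharply peaked without the drug. In the other lines the same site had 197 without and 20.9 with tetracycline in DNCHD4, and 52.4 without and 8.03 with tetracycline in DNSnf2h. In DNBrg1 it had 35.5 without tetracycline and was not listed with it. The site was thus high without tetracycline and low or unlisted with it in all 4 lines.

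The site on chromosome 17 at 7016838 to 7017719 reached 72.1 without and 16.7 with tetracycline, 5.69-fold higher (4.24 to 7.76). On chromosome 9 from 119090119 to 119090967 it was 61.01 without and 14.3 with tetracycline, 5.65-fold higher (4.11 to 7.93), and no other site lay within 50 kb. A site on chromosome 4 from 64330576 to 64331343 had 137 without and 32.2 with tetracycline, 5.60-fold higher (4.53 to 6.98). These 3 sites were listed without tetracycline in every line, and with tetracycline in DNCHD4 in every case, in DNSnf2h only for the site on chromosome 4 and in DNBrg1 for none. In DNCHD4 their log2 ratios were 1.64, 2.35 and 1.82 in the same order. The DNBrg1 list with tetracycline began at a density of 16.4, above the 15.8 and 10.97 that the sites on chromosomes 17 and 9 had in DNBrg1 without it. On the deposited scale their absence there thus shows no direction. The median ratio of DNBrg1 was 0.640 as deposited, and relative to it the bounds lie above 1 but under 2-fold.

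Chromosome 16 held 2 of the 8 highest ratios. The first, from 85950448 to 85951250, had no other site within 50 kb and measured 56.1 without and 13.95 with tetracycline, 5.32-fold higher (3.84 to 7.50). There DNCHD4 had 56.99 and 13.1, and DNSnf2h 54.6 and 14.01, without and with tetracycline, while neither DNBrg1 library listed it. The second chromosome 16 site, from 30797766 to 30798576, had 76.2 without and 20.5 with tetracycline, 4.92-fold higher (3.76 to 6.53). On chromosome 1 from 84154145 to 84154883 the values were 111 without and 30.4 with tetracycline, 4.85-fold higher (3.89 to 6.10). The eighth site, on chromosome 14 from 106562678 to 106563744, had 79.5 without and 22.01 with tetracycline, 4.78-fold higher (3.68 to 6.27). It was the only one of the 8 listed in both DNBrg1 libraries, at 80.9 without and 27.5 with tetracycline, a centred log2 ratio of 2.20 in that line. In DNCHD4 all 8 sites were listed in both states and all were at least 2-fold higher without tetracycline.

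The 8 sites with the lowest ratios by the same rule were 789 to 1223 bp wide, and with tetracycline all 8 were above the median hotspot density. The lowest ratio, on chromosome 1 from 40643438 to 40644237, came from 10.8 without and 71.6 with tetracycline, 5.01-fold lower after centring (3.60 to 7.14), or 42 and 231 tags. On chromosome 9 from 37043355 to 37044147 it was 11.3 without and 68.5 with tetracycline, 4.58-fold lower (3.30 to 6.48). Both were near the lowest density of the list without tetracycline, 10.04, as was the site on chromosome 6 given below, at 11.1. On chromosome 10 from 76111285 to 76112179 it was 23.9 without and 141 with tetracycline, 4.47-fold lower (3.57 to 5.65). On chromosome 12 from 78239660 to 78240448 it was 22.4 without and 127 with tetracycline, 4.30-fold lower (3.40 to 5.48). The strongest of these sites with tetracycline lay on chromosome 3 from 83543894 to 83544801, with 27.03 without and 153 with the drug, 4.28-fold lower (3.46 to 5.33). This site had 33.3 without and 255 with tetracycline in DNCHD4 and 23.6 and 130 in DNSnf2h, but neither DNBrg1 library listed it.

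The other 3 were on chromosome 17 from 27374548 to 27375382 (4.08-fold lower, 3.07 to 5.50), on chromosome 17 from 12402146 to 12403009 (4.01-fold, 3.12 to 5.21) and on chromosome 6 from 89371421 to 89372643 (3.75-fold, 2.68 to 5.36). Their densities were 15.2, 19.8 and 11.1 without tetracycline, against 81.8, 105 and 54.9 with it. None of the 8 lowest sites was listed in DNBrg1 cells without tetracycline, whereas 7 of them were listed there with it. In DNCHD4 all 8 were at least 2-fold lower without tetracycline, with log2 ratios of -1.24 to -2.97. In DNSnf2h, 5 of the 8 were listed in both states, all at least 2-fold lower, and the other 3 were listed only with tetracycline.

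**Figure D2:**
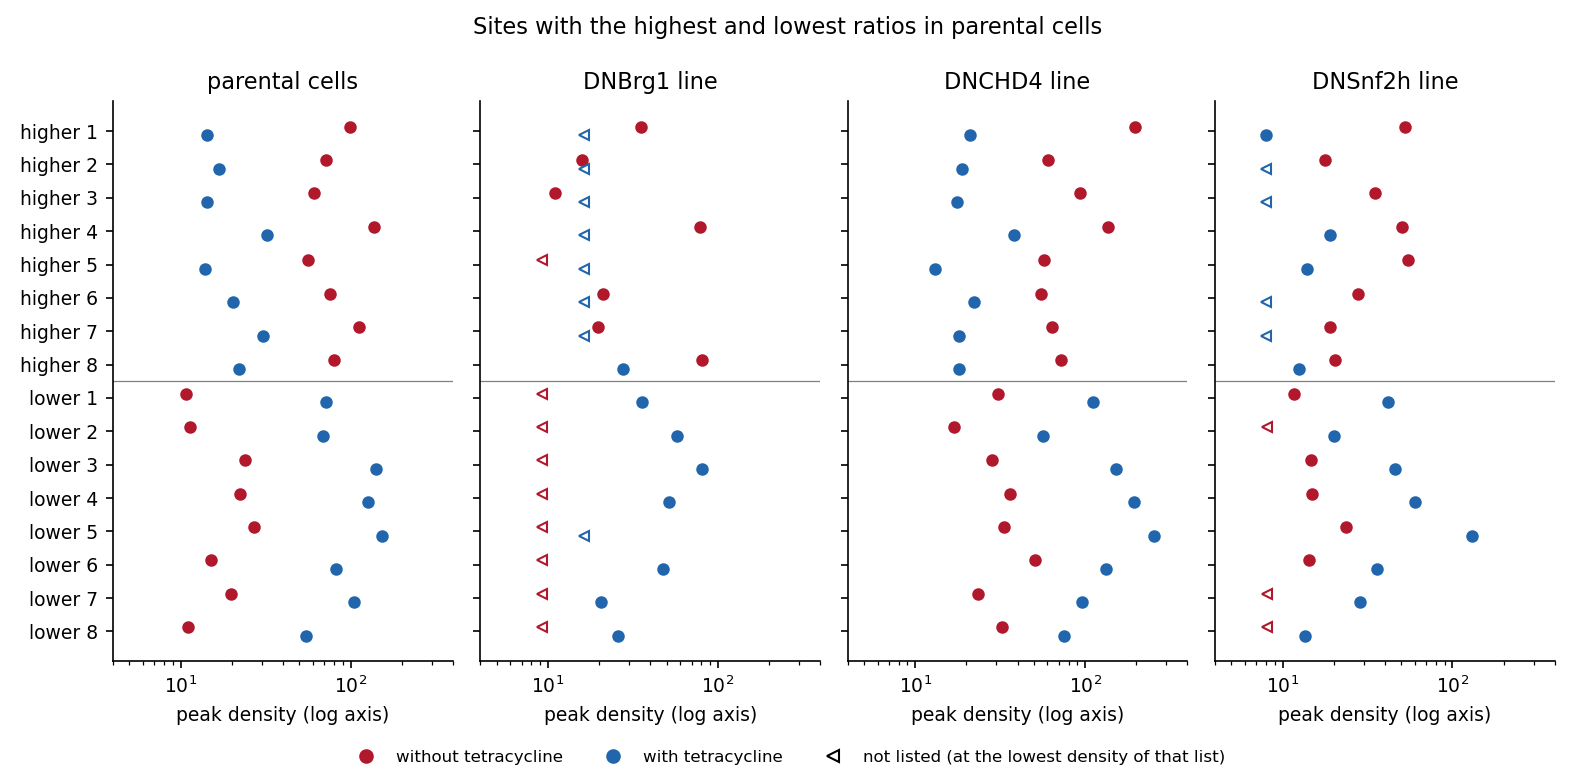
Peak density on a log axis, without (red) and with tetracycline (blue), at the 8 sites with the highest and the 8 with the lowest centred ratio in parental cells, numbered by rank as in the text, in each of the 4 lines; open triangles are libraries that do not list the site, drawn at the lowest density of that list. In the DNCHD4 panel every red point of the upper 8 sites is to the right of its blue point and every red point of the lower 8 is to the left, as in the parental cells that chose the sites.

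Sites in a single list were mostly faint. Of those only in the list without tetracycline, 75.4% had a density under 1.5 times the lowest of that list, and of those only in the list with tetracycline 72.7%. For comparison with such a list edge, a site only without tetracycline counted as 2-fold higher from a density of 19.7, and a site only with tetracycline as 2-fold lower from 26.5. This gave 432 of the higher and 390 of the lower sites. The running numbers of the hotspots have gaps for which no reason is given, and a number was missing from the other list at the position of 214 of those 432 and of 75 of those 390. Among sites with no number missing there and at most 10 others within 50 kb, the strongest hotspot found only without tetracycline was on chromosome 1 from 134365433 to 134366292, at 80.8. It was also listed without and not with tetracycline in each of the other lines, at 95.4 in DNCHD4, 23.6 in DNSnf2h and 17.6 in DNBrg1. Against the lowest density of the list with tetracycline it was at least 8.20-fold higher after centring, but the 1 hotspot of that list within 50 kb had 70.1, so no such difference is shown against local values.

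The next strongest were on chromosome 11 from 62449951 to 62450631, on chromosome 4 from 135859942 to 135860565 and on chromosome 17 from 13915706 to 13916313, at 44.8, 43.8 and 41.96 without tetracycline. Against the lowest density of the list with tetracycline they were at least 4.55-fold, 4.44-fold and 4.26-fold higher. The lowest local densities in that list were 13.6, 20.5 and 14.6, so the differences shown against local values are smaller. In DNCHD4 all 3 were listed in both states and at least 2-fold higher without tetracycline. By the same rule the strongest hotspots found only with tetracycline were on chromosome 11 from 75379271 to 75379953 and on chromosome 17 from 46010285 to 46010998. Their densities with tetracycline were 54.9 and 54.6. Against the lowest density of the list without tetracycline the sites were at least 4.14-fold and 4.11-fold lower. The lowest local density without tetracycline was 14.4 at both, so these differences too are smaller against local values. The third lay on chromosome 1 from 195224796 to 195225510 and had 48.4 with tetracycline. Against the same list edge it was at least 3.65-fold lower, and the lowest local density was 12.4. The fourth, on chromosome 7 from 29650803 to 29651415, had 47.1 with tetracycline. Its bound against that edge was at least 3.55-fold lower, and the lowest local density was 14.7. In DNCHD4 it was the other way round, with 45.6 without and 28.8 with tetracycline, a log2 ratio of 0.63.

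Ratios at the strongest sites lay mostly above the median of all sites. When the sites in both lists were put into 20 bins of equal size by strength, the geometric mean of the 2 densities, the median centred log2 ratio was 0.05 in the faintest bin, -0.08 in the bin around a density of 35.6 and 0.18 in the strongest bin, around 256. Among the 1000 strongest sites 782 had a ratio above the median of all sites, and their median was 1.16-fold. The 100 strongest had a median of 1.30-fold, with 89 above. Of these 100 sites 1 was past 2-fold. In the strongest bin 0.341% of the sites were 2-fold higher and none was 2-fold lower, against 2.79% and 4.50% in the bin around 25.6, and against 2.08% and 1.83% of all sites in both lists. Because both lists have a lowest density, a site in both could be 2-fold higher only from a strength of 16.02 and 2-fold lower only from 16.3, so the lack of such sites in the 2 faintest bins was fixed by the lists.

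The SD of the log2 ratio was highest at middle strength, 0.55 around densities of 23.2 to 28.4, and 0.29 in the strongest bin. From tag counting alone the SD would be 0.23 to 0.21 and 0.07 in the same bins. In the faintest bin the SD was 0.23, below the 0.30 from counting, since a faint site must pass the lowest density of both lists to be in it. That limit on the ratio eases only gradually over the next bins. The rise in SD from faint to middle strength was not separated from it. With strength taken instead from the DNCHD4 library with tetracycline, which had no part in these ratios, the strongest of 20 bins again had the highest median, at 0.17, and the median was -0.12 around a density of 52.2. The faintest bin then stood at 0.13, so the median at faint sites moved with the library that set the bins. Between the strongest and the faintest of 5 classes the difference was 0.04. It changed sign with classes from that DNCHD4 library, to -0.05, and with a common lowest density for both lists, to -0.09. That common density, 13.02, was set before centring and removed hotspots only from the list without tetracycline. Faint sites in both lists were thus kept by their density without tetracycline, and this change of sign does not bear on strength alone. At the sites of the strongest parental bin the median centred log2 ratio of DNBrg1 was 0.27, that of DNCHD4 0.01 and that of DNSnf2h 0.21.

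**Figure D3:**
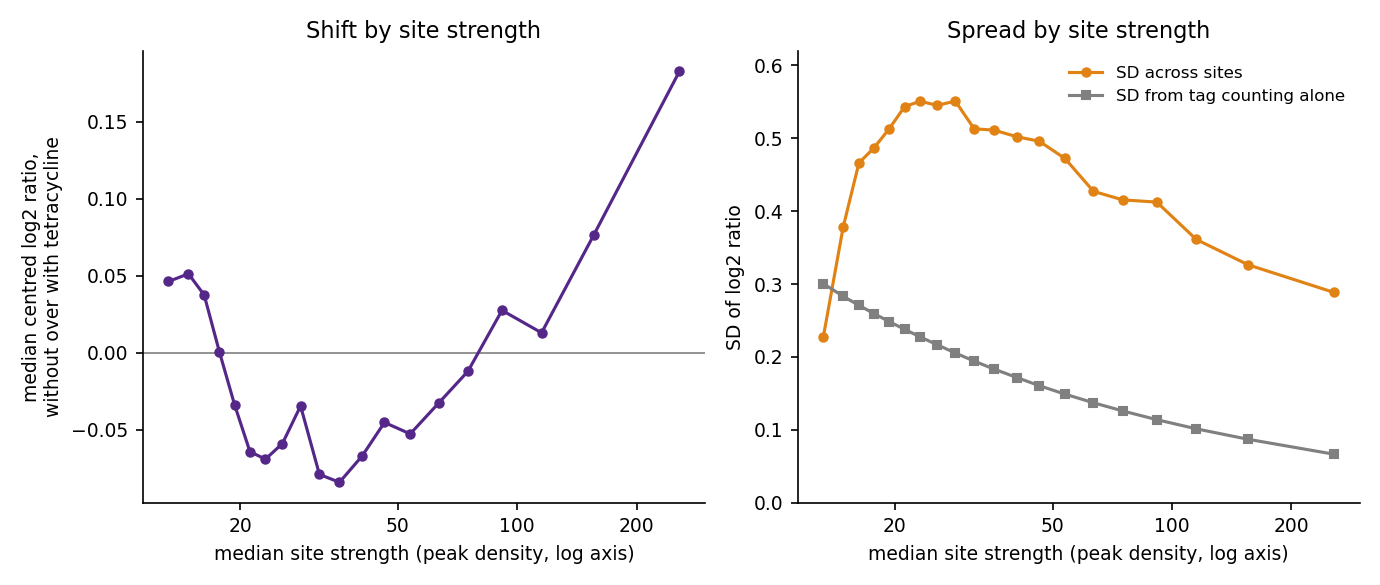
Left, median centred log2 ratio without over with tetracycline in 20 bins of equal size by site strength (log axis); right, the SD of the log2 ratio across the sites of each bin (orange) and the SD that tag counting alone would give (grey). The median is lowest at middle strength, at -0.08, and highest in the strongest bin, at 0.18; the SD across sites is above the counting SD in all bins but the faintest.

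The 3 strongest sites differed from each other. The strongest hotspot of both lists was also the second widest site, 6176 bp on chromosome 17 from 39979771 to 39985946, with a peak density of 4129 without and 2126 with tetracycline. It was 2.57-fold higher after centring (2.49 to 2.64), a log2 ratio of 1.36 that was 0.96 as deposited. In the other lines it had 5222 without and 1802 with tetracycline (DNBrg1), 4689 and 1832 (DNCHD4), and 1459 and 567 (DNSnf2h), so the value without tetracycline was the higher one in each line. No annotation was used, so whether tags from repeated sequence pile up at this site was not checked. The second strongest, on chromosome 17 from 34740178 to 34741598, had 1279 without and 880 with tetracycline, 1.92-fold higher (1.83 to 2.01). The third, on chromosome 13 from 85266253 to 85267366, had 809 without and 1225 with tetracycline, 1.15-fold lower after centring (1.09 to 1.20). That site was at least 2-fold lower without tetracycline in DNCHD4 and DNSnf2h, with log2 ratios of -1.06 and -1.33, and had 0.44 in DNBrg1.

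Median centred log2 ratios of the 5 width classes, from the narrowest to the widest, were 0.05, -0.05, -0.05, 0.01 and 0.02. Sites of middle width, 697 to 808 bp, were 2-fold higher in 3.12% and 2-fold lower in 3.29% of cases, against 1.26% and 1.00% of sites of 1032 bp or more. Median width was 572 bp in the faintest and 1134 bp in the strongest of the 20 strength bins, so the classes were also set out within strength. Of the narrowest sites 3550 of 5871 were in the faintest of 5 strength classes, where the lists leave little room for 2-fold differences. Within the strongest of 5 strength classes the median ratio was 0.09 for the widest sites. A group of 13 strong but narrow sites, at most 621 bp, had a median of 0.63 with 4 of them 2-fold higher and none 2-fold lower, against 8 higher and 1 lower of 649 sites of middle width in that strength class. The 95 narrow sites of the next strength class had a median of 0.22, with 7 higher and none lower, against 45 higher and 37 lower of 1917 sites of middle width. Within these 2 strength classes the narrowest sites thus held a larger share past 2-fold than sites of middle width, all of it higher. Sites of the second narrowest class were 6 higher and 4 lower of 566 in the next strength class. In the strongest class they were 1 higher and none lower of 57. The narrow groups are small and were chosen after the values were seen, so no order by width is shown. The widest site of all, 7438 bp on chromosome 16 from 3231458, had 26.5 without and 29.5 with tetracycline, 1.19-fold higher after centring with an interval of 0.891 to 1.59 that includes 1. The third widest, 4736 bp on chromosome 4 from 3007092, had 41.4 without and 35.7 with tetracycline and was 1.54-fold higher (1.20 to 1.97).

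The listed hotspot itself was mostly wider without tetracycline where density was higher and narrower where it was lower. At the 611 higher sites the hotspots measured a median of 744 bp without and 630 bp with tetracycline, and 84.1% were wider without it. At the 536 lower sites the medians were 577.5 bp without and 754.5 bp with tetracycline, and 2.05% were wider without it. Sites under 2-fold had 677 bp without and 714 bp with tetracycline, with 33.8% wider without it. Across the sites in both lists the log2 ratio of width and that of density had a Pearson r of 0.45 (29355 sites of the same 2 libraries). The groups were chosen by peak density in these same 2 libraries, and median site width rose with strength, from 572 bp to 1134 bp over the 20 bins. The width differences are therefore not separate from the density differences that chose the sites. The 2 lists had different lowest densities, whose part in these widths was not tested.

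Shape, the mean over the peak density of a hotspot, hardly differed. Its median was 0.284 without and 0.285 with tetracycline over all sites in both lists, 0.275 and 0.277 at the higher sites, and 0.282 and 0.280 at the lower sites. The most peaked of 5 shape classes had a median centred log2 ratio of 0.02 and the flattest -0.03. Few sites were divided differently in the 2 lists. In 28819 of 29355 sites both lists had the same number of hotspots, in 391 the list without tetracycline had more and in 145 it had fewer.

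Sites past 2-fold had neighbours past 2-fold in the same direction more often than other sites did, while the median ratio hardly varied with the number of sites nearby. Isolated sites, with no other within 50 kb, had a median centred log2 ratio of 0.02, and sites with more than 10 others had 0.01. Yet 225 of 1043 higher sites, 21.6% (interval 19.2 to 24.2), had another higher site within 50 kb, against 9.999% (9.70 to 10.3) of the 38132 sites not called. Of the sites not called, 9924 were in a single list, with a bound under 2-fold that does not show their ratio. A lower site lay within 50 kb of 9.11% of the higher sites, against 10.6% of the sites not called. Of the 926 lower sites 175, 18.9% (16.5 to 21.5), had another lower site within 50 kb. Neighbourhood at higher sites kept this direction when sites in a single list were left out, at 15.2% against 6.18%, but that of lower sites was then 6.90% against 5.88%. Adjacent sites less than 2 kb apart had a Pearson r of their log2 ratios of 0.21 over 2711 pairs, and the value fell with distance to 0.04 over 3941 pairs that were 100 to 1000 kb apart. These correlations are weak, are across sites of the same 2 libraries, and include any tags that closely spaced sites share.

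**Figure D4:**
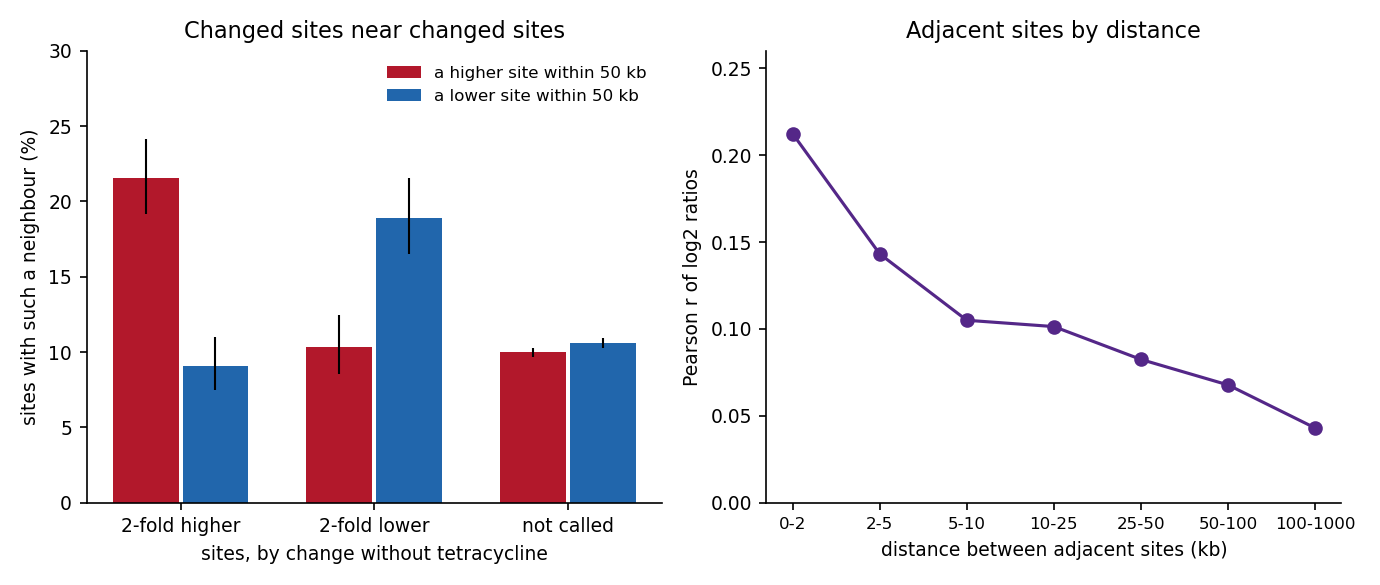
Left, share of sites with at least 1 other 2-fold higher site (red) or 2-fold lower site (blue) within 50 kb, for higher sites, lower sites and sites called neither way, with Wilson intervals at 95%; right, Pearson r of the log2 ratios of adjacent sites in both lists by their distance in kb. Higher sites have higher neighbours in 21.6% and lower sites have lower neighbours in 18.9% of cases, against 9.11% to 10.6% for the other bars, and r declines from 0.21 to 0.04.

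Sites past 2-fold were mostly single. In the order of sites along the chromosomes, the 611 higher sites in both lists fell into 532 single sites, 38 adjacent pairs and 1 run of 3, and the 536 lower ones into 501 single sites, 16 pairs and 1 run of 3. Median centred log2 ratios of the autosomes and chromosome X were between -0.05, on chromosome 14, and 0.03, on chromosome 19. Of 1124 windows of 1 Mb with at least 10 sites in both lists, the middle 90% had medians between -0.26 and 0.20. The lowest was on chromosome 5 from 119000001 to 120000000, at -0.60, with 9 of 10 sites below 0. In that window the median was -0.71 over 7 sites for DNBrg1, -0.93 over 9 for DNCHD4 and -0.10 over 3 for DNSnf2h. The highest was on chromosome 8 from 19000001 to 20000000, at 0.58, with 25 of 28 sites above 0, beside 0.47 over 17 sites for DNBrg1, 0.08 over 26 for DNCHD4 and 0.07 over 25 for DNSnf2h.

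That window holds 2 of the 5 densest clusters of sites. On chromosome 8 from 19681519 to 19772885 there were 24 sites, 13 in both lists and 11 only without tetracycline, with a median log2 ratio of 0.58. From 19884114 to 19980181 there were 22 sites, 13 in both lists, 7 only without and 2 only with tetracycline, with a median of 0.58. The densest cluster of all, on chromosome 11 from 3023556 to 3099990, had 48 sites, of which 39 were in both lists and 9 only without tetracycline, with a median of 0.53. No site there in both lists was past 2-fold. The lowest density in this cluster was 44.02 without and 46.5 with tetracycline, far above the edges of both lists, so a 2-fold rise is not shown for its 9 sites in a single list. Clusters on chromosome 9 from 107444124 to 107538324 and on chromosome 19 from 5771123 to 5851871 had 22 sites each and medians of 0.10 and 0.08.

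Where another line listed a parental site past 2-fold in both states, its ratio was mostly on the same side of the median, although the libraries of that line had no part in choosing the site. At the parental higher sites in both lists, the median log2 ratio, centred within each line, was 0.60 for DNBrg1 (320 sites in both lists of that line), 0.79 for DNCHD4 (607 sites) and 0.47 for DNSnf2h (370 sites). Ratios above 0 were found at 80.0% (75.3 to 84.02), 92.3% (89.9 to 94.1) and 80.3% (75.9 to 84.01) of those listed. As counts of all 611 higher sites, listed or not, these were 256 in DNBrg1, 560 in DNCHD4 and 297 in DNSnf2h. At the parental lower sites the medians were -0.99 over 228 sites, -1.33 over 523 and -0.93 over 330, with 93.9%, 95.4% and 93.3% below 0, which were 214, 499 and 308 of all 536. Sites under 2-fold in parental cells had medians of 0.00, -0.02 and 0.00, with 50.2%, 48.5% and 50.4% above 0. In those lines removal of tetracycline also induced a dominant-negative protein, so drug and protein cannot be told apart there.

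Of the parental higher sites that DNBrg1 listed in both states, 27.2% (87 of 320) were at least 2-fold higher, against 2.82% of all its sites in both lists. Of the parental lower sites so listed, 48.7% (111 of 228) were at least 2-fold lower, against 6.94%. For DNCHD4 the shares were 38.1% against 5.37% and 66.9% against 8.5%. For DNSnf2h they were 19.7% against 2.54% and 43.9% against 6.37%. Over all sites in both parental lists that DNBrg1 listed in both states, 2.85% were 2-fold higher and 7.29% were 2-fold lower in it. The same shares were 4.36% and 9.23% in DNCHD4, and 2.64% and 6.62% in DNSnf2h. Among sites in both parental lists and in both lists of the other line, opposite 2-fold changes were rare, at 4 sites. In classes of the parental ratio, the median ratio of each other line rose from class to class. Where parental sites had log2 ratios of 1.5 or more, 107 in all, the median was 0.76 for DNBrg1 over 44 of them, 1.29 for DNCHD4 over 107 and 0.84 for DNSnf2h over 70. Where they had log2 ratios under -1.5, 61 in all, the medians were -1.21 over 19 sites, -1.70 over 60 and -1.14 over 40. The 2932 sites between 0.5 and 1 in parental cells had 0.36 over 1967 sites, 0.28 over 2899 and 0.11 over 1641 in the same order. Across sites the Pearson r between the parental ratio and that of the other line was 0.45 over 20709 sites for DNBrg1, 0.48 over 28879 for DNCHD4 and 0.36 over 15354 for DNSnf2h, with no library in common.

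**Figure D5:**
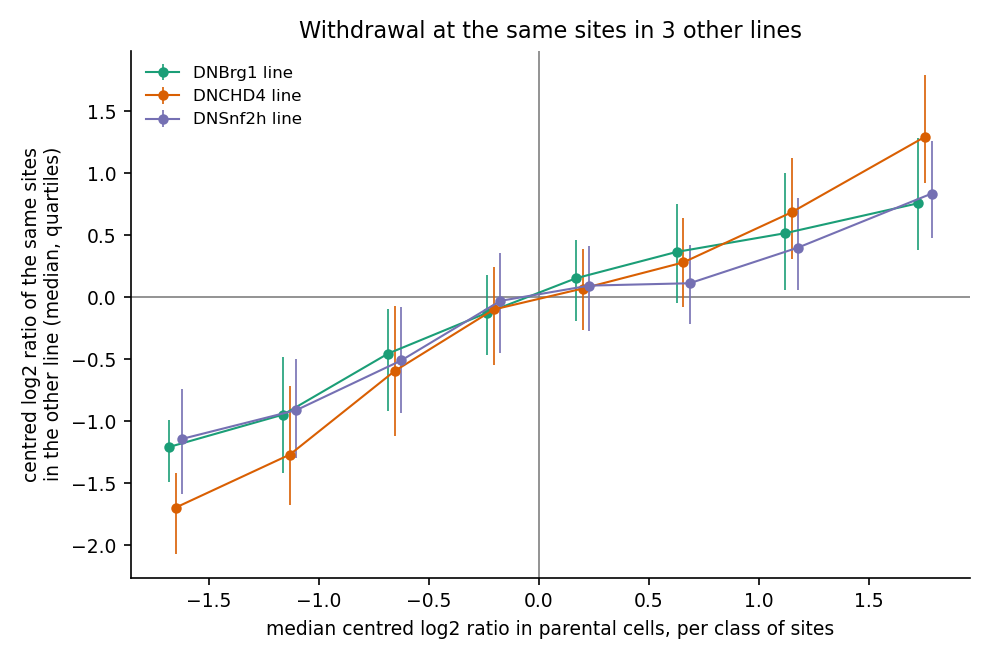
Sites in both parental lists in 8 classes of the parental centred log2 ratio, each at its median (horizontal axis, shifted by a small amount per line so that bars do not overlap), and the centred log2 ratio of the same sites in the DNBrg1, DNCHD4 and DNSnf2h lines (vertical axis, median with quartiles as bars). The medians climb with the parental ratio in each line, from -1.21, -1.70 and -1.14 in the lowest class to 0.76, 1.29 and 0.84 in the highest.

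Of the 1043 parental higher sites, 245 were in both lists of all 3 other lines, and 150 of them, 61.2%, were above 0 in all 3, against 22.9% of the 12400 such sites not called in parental cells. Of the 174 such lower sites 154, 88.5%, were below 0 in all 3, against 23.8%. At 13 of the 245 higher sites, 5.31%, all 3 lines were at least 2-fold higher, against 4 of the 12400 sites not called, 0.0323%. At 40 of the 174 lower sites, 23.0%, all 3 were at least 2-fold lower, against 99 of the 12400, 0.798%. Seen the other way, 17 sites were at least 2-fold higher in all 3 other lines. In parental cells all 17 were above 0, with log2 ratios of 0.63 to 2.11 and a median of 1.36, and 13 were called higher. Another 139 sites were at least 2-fold lower in all 3. In parental cells 138 of these were in both lists, with a median of -0.74, and 134 of them were below 0. Only 40 of the 139 were called lower in parental cells.

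Hotspots that only 1 parental list held were listed more often by the library of the matching tetracycline state in each other line. Of the 432 called higher, DNCHD4 listed 94.4% without and 68.3% with tetracycline, DNBrg1 45.8% and 14.6%, and DNSnf2h 52.8% and 17.4%. Of all 5242 sites only without tetracycline these shares were 84.9% and 64.8% in DNCHD4, 33.6% and 15.3% in DNBrg1, and 19.8% and 11.8% in DNSnf2h. Of the 390 called lower, DNCHD4 listed 78.5% without and 98.7% with tetracycline, DNBrg1 20.8% and 57.7%, and DNSnf2h 22.6% and 56.7%. Of all 5504 sites only with tetracycline they were 73.0% and 92.6%, 21.9% and 31.9%, and 11.3% and 28.3% in the same order. In DNCHD4 the called sites were thus listed at shares near those of all sites in a single list. Those lists differed in length and in lowest density, which moves the shares of a line between its 2 states.

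Whole libraries were also compared at the 12734 parental sites listed in all 8 of them. The SD of the log2 ratio between the parental libraries without and with tetracycline was 0.43, and 3.09% of these sites were past 2-fold after centring. The parental and DNCHD4 libraries with tetracycline differed less, with an SD of 0.33 and 0.620% past 2-fold, and the parental and DNCHD4 libraries without tetracycline also, with an SD of 0.39 and 1.62%. The parental library without tetracycline and the DNCHD4 library with it differed by an SD of 0.49, with 5.61% past 2-fold. For these lines the 2 libraries of the same tetracycline state were thus closer than the 2 parental libraries. This did not extend to DNBrg1 and DNSnf2h, whose libraries had an SD of 0.51 to 0.92 against either parental library.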

How the data were processed

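The submitters' processing notes name CASAVA 1.6 and build mm9, and no hotspot caller (not given in the sources used here). For each library the authors deposited a list of hotspots with the highest and the mean tag density as a signal, in a scaling that the labels do not describe. The deposited enrichment score (a z-score) and the deposited p-value per hotspot were not compared between libraries; the p-value was 0 for 37.4% of hotspots without and 44.4% with tetracycline in parental cells. Groups came from the labels, with 1 library each.

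Peak densities were whole multiples of 1 step per library in 100% of hotspots within 0.05 tags, and the step (0.257 without, 0.31 with tetracycline) turned densities into tags. Hotspots overlapping by at least 1 bp were joined into sites, the value of a site was its highest peak density, and ratios were centred on the median of the sites in both lists. Where only 1 list held a site, the lowest density of the other list gave a bound. Intervals are exact binomial on tags and Wilson on shares. In the other lines, the strongest overlapping site in both lists of that line was taken. Simulated lists with known changes at sites in both lists were used to test the calls. They held tag counting error only, so they do not show how the calls fare with the wider spread between the parental libraries. Sites named are, among those with at least 30 tags (a limit that removed none) and at most 10 others within 50 kb, the 8 highest and 8 lowest ratios and the 4 strongest of each single list with no number missing, then the 3 strongest, the 3 widest and the 5 densest clusters. The comparison, classes and rules were chosen with earlier results of these data known; the windows, runs, hotspot widths, narrow strong sites, distances and the alternatives for neighbour shares and named sites were chosen after the values were seen. Tools were matplotlib 3.10.9, scipy 1.17.1, pandas 2.3.3 and numpy 2.4.6 under Python 3.11.15. Gene tables of another build were not used, so no gene is named and no sequence is shown.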

Additional observations from a re-analysis of the deposited data

Results flagged for a closer look

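At 4 sites in both lists of both lines compared, the change on withdrawal was past 2-fold in parental cells and past 2-fold in the opposite direction in another line; with 1 library a group this difference was not tested. On chromosome 4 from 137300266 density was 13.6 without and 43.1 with tetracycline in parental cells, and 79.9 without and 29.9 with it in DNCHD4, a difference in centred log2 ratio of -2.64. On chromosome 9 from 55954320 it was 23.9 without and 14.3 with tetracycline in parental cells, and 10.2 without and 21.5 with it in DNCHD4, a difference of 2.26. On chromosome 4 from 80704000 it was 42.5 without and 26.7 with tetracycline in parental cells, and 14.3 without and 29.3 with it in DNSnf2h, a difference of 2.09. On chromosome 18 from 70857234 it was 53.8 without and 31.3 with tetracycline in parental cells, and 9.27 without and 24.5 with it in DNSnf2h, a difference of 2.57.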

How the results depend on the processing

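The 2-fold counts were 1043 higher and 926 lower. They were 273 and 3886 with densities as deposited, 4015 and 4004 at 1.5-fold, 162 and 80 at 3-fold, 328 and 181 with only hotspots at or above 2 times the common list threshold, and 611 and 536 with sites in a single list left out. With the highest mean density they were 5977 and 6189, because the lists begin at a peak density and give no bound on mean density; at sites in both lists alone, an alternative chosen after seeing the data, mean density gave 774 and 701. The other 7 alternatives gave counts within 1.5 times, from 794 to 1071 higher and from 639 to 1231 lower.

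The parental higher sites had a median log2 ratio of 0.53 in the other lines (the middle of the 3 lines), and the lower sites -0.86. These kept their sign under every alternative run. They were 0.40 and -0.61 at 1.5-fold, 0.76 and -1.21 at 3-fold, 0.64 and -1.29 at 2 times the common threshold and 0.33 and -0.32 with mean density; the lower sites also had -0.97 with the strongest of 5 classes set to 1 and -0.99 with sites in a single list left out.

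Differences between classes of sites were small. Strong minus weak sites differed by 0.04 in median log2 ratio, but by -0.0543 with classes from the DNCHD4 library with tetracycline, by -0.0881 with a common list threshold and by 0.0727 with mean density. Wide minus narrow sites differed by -0.02, by 0.0407 with mean density, -0.0558 with classes from that DNCHD4 library, -0.0857 with a common threshold and -0.0502 with medians set in 20 bins of strength. Peaked minus flat sites differed by 0.05, and by 0.0297 with those DNCHD4 classes, 0.0282 with a common threshold, 0.0919 with mean density and 0.0162 with 20 bins. Clustered minus isolated sites differed by -0.03, and by -0.0027 at 2 times the threshold, -0.0494 with a common threshold and -0.0554 with mean density. In parental cells the common list threshold was set before centring and removed hotspots only from the list without tetracycline. Except where stated, the cause was not tested. Of 25 named sites past 2-fold, 24 stayed so under the 4 alternatives of scaling and site value run for them; the strongest site was 0.96 on the log2 scale as deposited.

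No paired analysis was possible because parental cells have 1 library without and 1 with tetracycline; a fit over all 4 lines with line as a block would ask another question, since 3 of them also induce a protein, and was not run. Depth limits faint sites most: the median hotspot had 93 tags without and 105 with tetracycline.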
